A study of Mus musculus with 10 samples.

Results

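The uncoupling proteins and the genes of the creatine cycle were examined as a set of 10 genes, taken by symbol, by a rule that uses no measured value: Ucp1, Ucp2 and Ucp3, the creatine synthesis genes Gatm and Gamt, the creatine transporter Slc6a8, the creatine kinases Ckb, Ckmt1 and Ckmt2, and the phosphatase Alpl. Each symbol was held by a single record among the 54347 gene records of the table. Of the 10 genes, 9 passed the filter on low counts, which left 13732 genes for testing, and Ckmt1 did not pass it. Ckmt2 passed only through the mice whose libraries also held skeletal muscle RNA.

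UCP1 sits in the inner membrane of brown fat mitochondria and lets protons return to the matrix without ATP being made, so that the energy of respiration is released as heat. UCP2 and UCP3 are related carriers of the same membrane, UCP2 being found in many tissues and UCP3 mainly in skeletal muscle and brown fat. In the creatine cycle, a kinase passes phosphate from ATP to creatine and a phosphatase removes it again, which also turns over ATP as heat in thermogenic fat. GATM and GAMT make creatine, SLC6A8 carries it into the cell, creatine kinase B (Ckb) and the tissue-nonspecific alkaline phosphatase (Alpl) have been assigned to the cycle in fat, and CKMT1 and CKMT2 are the mitochondrial kinases, the latter known from striated muscle.

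Poly A RNA was measured in interscapular brown adipose tissue (iBAT) of 10 mice, 5 ΔGm15551 and 5 wild type litter mates, on the C57BL/6N background. All were 12 weeks old and were kept singly for 24 h at 4 °C, so that a group at room temperature was not part of the comparison. ΔGm15551 mice lack exon 1 of the lncRNA gene Gm15551 in every tissue after CRISPR/Cas9 editing, were backcrossed to wild-type animals before use, and were compared to address whether the lncRNA is needed for the function of brown fat. The replicates were separate mice with their own mouse numbers, and are named by the replicate numbers of their labels. Wild type replicates 5, 6 and 7 had mouse numbers from a higher series than the other 7 mice, so this series and genotype are partly confounded. The libraries held 9680976 to 15771170 estimated counts. Gm15551 itself had 0 counts in all 5 ΔGm15551 libraries and 1, 2, 6, 7 and 0 counts in wild type replicates 2, 3, 5, 6 and 7, so the target was barely detected even in wild type mice. The study reports that cold represses Gm15551 in iBAT, and the part of cold and of depth in these low counts was not tested. All 13 brown adipocyte markers and all 10 common adipocyte markers had counts in every mouse, with summed levels of 6180 to 7630 and 28900 to 32700 CPM (counts scaled to a common library total, with TMM factors).

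The libraries stood apart in their content of skeletal muscle RNA. The summed level of 15 genes of skeletal muscle ran from 37.0 to 2650 CPM in wild type and from 30.1 to 1620 CPM in ΔGm15551 mice, and 10 of the 15 genes were at 0 in at least 1 mouse. Muscle creatine kinase (Ckm), which is not in that list, had at most 1 count in 4 mice (ΔGm15551 replicates 2 and 7, wild type replicates 3 and 6) and 53 to 3713 counts in the other 6. Both genotypes held mice of both kinds, and the muscle content is given below beside each result it moves with.

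Of the 4 promoters printed here, that of Ucp1 belongs to the most abundant transcript of the set, those of Ckb and Ckmt2 to the member kinases with the highest level and the widest spread between mice, and that of Ckm to the muscle gene that Ckmt2 followed. Each is the 250 bases before the start of the gene in RefSeq on GRCm38.p6, 5′ to 3′ on the strand of the gene. They lie at chr8:83290098-83290347 (plus strand) for Ucp1, chr12:111672339-111672588 (minus) for Ckb, chr13:91876886-91877135 (minus) for Ckmt2 and chr7:19410844-19411093 (plus) for Ckm. Capitals mark, in Ucp1, the site of the guide that the study designed to activate this gene in cultured brown adipocytes, and in Ckm and Ckmt2 each match to the E-box CANNTG, the letters bound by myogenic and other helix-loop-helix factors.
Ucp1: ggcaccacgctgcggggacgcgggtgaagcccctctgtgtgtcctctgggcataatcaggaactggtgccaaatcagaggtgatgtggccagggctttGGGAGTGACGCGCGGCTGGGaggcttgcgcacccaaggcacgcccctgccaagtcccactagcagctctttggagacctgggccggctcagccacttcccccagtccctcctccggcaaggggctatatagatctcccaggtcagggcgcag
Ckb: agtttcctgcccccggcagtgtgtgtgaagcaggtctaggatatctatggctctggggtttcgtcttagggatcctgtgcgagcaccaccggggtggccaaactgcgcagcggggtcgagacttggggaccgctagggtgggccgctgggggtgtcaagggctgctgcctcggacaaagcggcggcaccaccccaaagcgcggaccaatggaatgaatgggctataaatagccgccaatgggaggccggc
Ckmt2: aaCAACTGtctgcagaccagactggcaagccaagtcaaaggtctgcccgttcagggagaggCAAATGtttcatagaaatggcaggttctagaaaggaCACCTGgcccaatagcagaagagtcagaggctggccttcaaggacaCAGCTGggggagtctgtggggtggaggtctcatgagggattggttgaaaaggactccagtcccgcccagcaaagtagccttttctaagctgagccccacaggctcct
Ckm: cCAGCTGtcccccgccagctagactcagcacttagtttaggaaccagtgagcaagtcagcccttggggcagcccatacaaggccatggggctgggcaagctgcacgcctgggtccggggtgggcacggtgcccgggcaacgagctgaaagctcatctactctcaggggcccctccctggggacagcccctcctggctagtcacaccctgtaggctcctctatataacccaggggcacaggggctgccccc
The guide GGGAGTGACGCGCGGCTGGG, at chr8:83290196-83290215 on the plus strand and followed by the PAM AGG, starts 152 bases before the start of Ucp1. It was not used in the 10 mice. The promoter of Ckmt2 held 4 matches to CANNTG, a motif that reads the same on both strands, against 1 in Ckm and none in Ckb and Ucp1. Among 32851 promoter windows of the same length, 66.2% held at least 1 match and 3.80% held at least 4. The window of Ckb held TATAAA, as did 7.60% of the windows. These matches are letters in a window and were not measured as binding sites here.

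Ucp1 was by far the highest member. It is a gene of 6 exons on chromosome 8 (GRCm38, chr8:83290352-83298452, plus strand, ENSMUSG00000031710.4) and took 0.866% of all counts, 16th of all genes by mean level. Its level was 8981, 8531, 8265, 9007 and 6436 CPM in wild type replicates 2, 3, 5, 6 and 7. In ΔGm15551 replicates 1, 2, 4, 5 and 7 it was 5747, 10990, 9188, 8790 and 10960 CPM. The lowest and the highest values were both from ΔGm15551 mice, so the groups overlapped throughout. The means were 8244 ± 1058 CPM in wild type and 9135 ± 2143 CPM in ΔGm15551 mice (SD, n = 5 each), a log2 fold change (log2FC, ΔGm15551 minus wild type) of 0.15 with a standard error (SE) of 0.18 (edgeR, adjusted p = 0.9998, a value shared by all 9 members tested). The 95% interval of the difference, from limma-voom, ran from -0.27 to 0.52. In bulk tissue, fewer cells of a type and less RNA per cell cannot be told apart, and this holds for every level given here.

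The RNA of Ucp2 and Ucp3 was much lower. These genes are neighbours on chromosome 7, both on the plus strand, with Ucp3 at chr7:100472990-100486432 and Ucp2 at chr7:100493337-100502020, 6904 bp apart. Ucp2 had 90.98, 48.91, 71.82, 79.61 and 96.83 CPM in wild type replicates 2, 3, 5, 6 and 7. It had 67.72, 79.57, 75.38, 100.8 and 71.89 CPM in ΔGm15551 replicates 1, 2, 4, 5 and 7. Wild type replicate 3 was the lowest of all, and the groups overlapped, with a log2FC of 0.03 (SE 0.17, interval -0.34 to 0.44). Ucp3 lay between 171.0 and 228.8 CPM in wild type and between 178.2 and 225.8 CPM in ΔGm15551 mice. Its log2FC was -0.05 (SE 0.12, interval -0.29 to 0.20). Ucp3 was among the steadier genes, its SD of log2 CPM within groups being at the 16.5th percentile of the genes tested, while Ucp1 (58.6th) and Ucp2 (61.2nd) were near the middle. Per kb, taking the median length of the coding transcripts, Ucp1 made up 94.6% to 97.2% of the RNA of the 3 uncoupling proteins in every mouse. The share was 97.5% to 98.7% with the longest coding transcript and 98.1% to 99.0% over the union of exons.

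**Figure D1:**
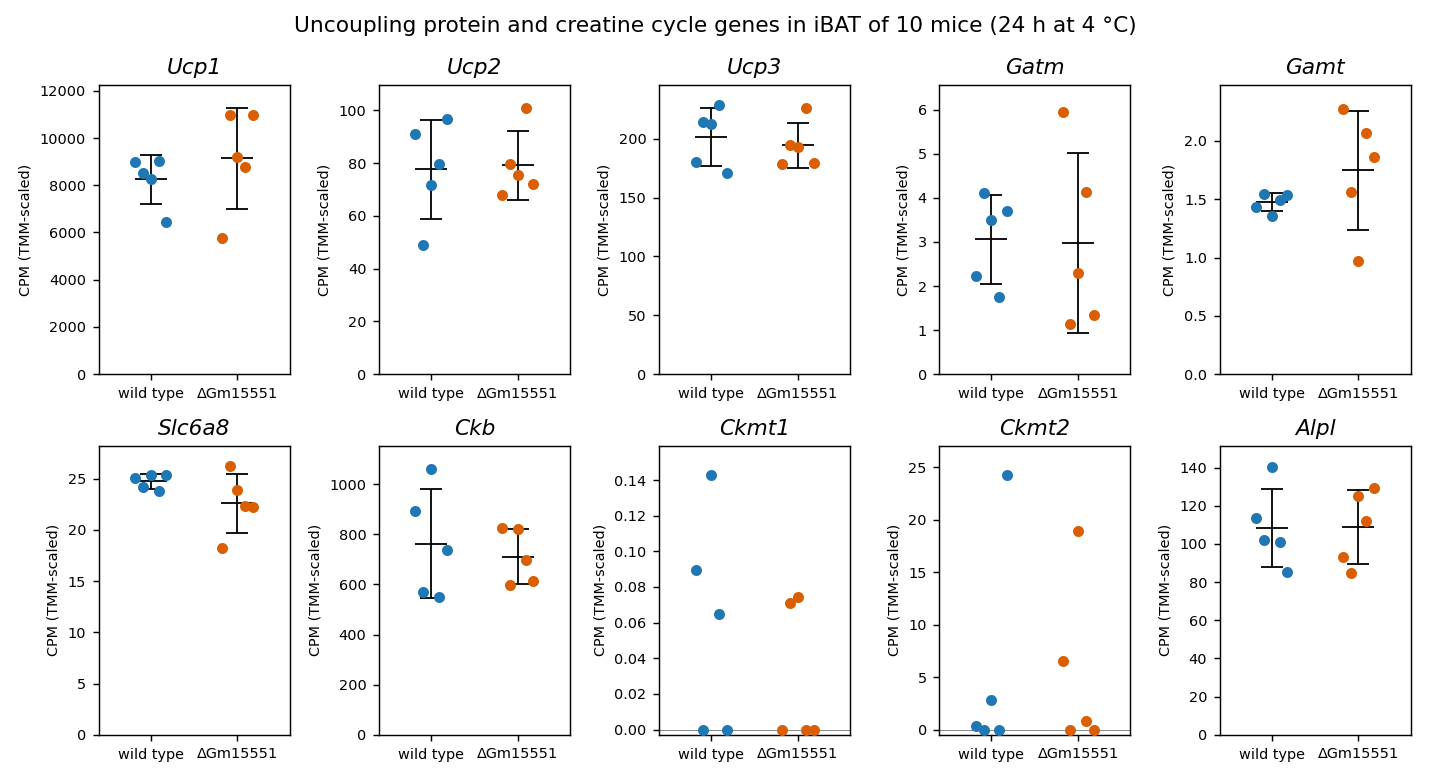
TMM-scaled CPM (vertical axes, starting at 0 or, for Ckmt1 and Ckmt2, just under it) of the 10 genes in 5 wild type (blue) and 5 ΔGm15551 (orange) mice, 1 point per mouse, with the mean and SD in black except for Ckmt1 and Ckmt2, where several mice were at 0. The points of both groups overlap for all 10 genes, Ucp1 running from 5747 to 10990 CPM.

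The creatine synthesis genes were close to the lower limit of these libraries. Gatm, the glycine amidinotransferase that makes the precursor of creatine (chr2:122594467-122611303, minus strand), had 25, 48, 49, 27 and 36 counts in wild type replicates 2, 3, 5, 6 and 7. It had 81, 16, 31, 54 and 18 counts in ΔGm15551 replicates 1, 2, 4, 5 and 7. The ΔGm15551 mice therefore held both the highest and the lowest Gatm libraries, 5.943 and 1.137 CPM, while the means were alike (3.062 ± 1.01 CPM in wild type and 2.974 ± 2.041 CPM in ΔGm15551 mice, SD, n = 5 each). The log2FC was -0.04 in edgeR (SE 0.42) and -0.23 in limma-voom, which gave the interval of -1.16 to 0.71. Its spread within groups was at the 96.7th percentile of the genes tested. The coefficient of variation was 33.0% in wild type and 68.6% in ΔGm15551 mice, where counting error alone gives 16.9% and 18.3% at these counts.

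Gamt, the methyltransferase that completes creatine (chr10:80258151-80261012, minus strand), had 15 to 23 counts in wild type and 13 to 31 counts in ΔGm15551 mice. Its means were 1.474 ± 0.0781 CPM and 1.748 ± 0.51 CPM (SD, n = 5 each). The log2FC of 0.25 (SE 0.24) did not pass (edgeR adjusted p = 0.9998, interval -0.35 to 0.72), and it ran from 0.13 without ΔGm15551 replicate 1 to 0.40 without ΔGm15551 replicate 4. The wild type values agreed more closely (coefficient of variation 5.30%) than the counting error of 23.6% at these counts, so that their small SD does not measure the precision of the mean. Slc6a8, the creatine transporter on chromosome X (chrX:73673150-73682502, plus strand), was higher and steadier, with 23.76 to 25.36 CPM in wild type and 18.27 to 26.22 CPM in ΔGm15551 mice. ΔGm15551 replicate 1 had the lowest value, and replicate 2 of the same group the highest. The log2FC was -0.13 (SE 0.11, interval -0.37 to 0.09; -0.06 without ΔGm15551 replicate 1), and the spread of Slc6a8 within groups was at the 10.5th percentile, the lowest of the set.

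Ckb was the most abundant creatine kinase in every mouse (chr12:111669361-111672338, minus strand, ENSMUSG00000001270.9). It made up 70.7% or more of creatine kinase RNA per kb, taking the median length of the coding transcripts, and this share depends on the length used. Its level was 891.7, 570.3, 1062, 550.9 and 738.6 CPM in wild type replicates 2, 3, 5, 6 and 7. In ΔGm15551 replicates 1, 2, 4, 5 and 7 it was 826.3, 595.7, 820.6, 695.6 and 612.4 CPM. Wild type mice held the 2 highest and the 2 lowest values, and the log2FC was -0.10 (SE 0.19, interval -0.48 to 0.34). Of the 31-base words in Ckb transcripts, 17.5% also occurred in other genes (Gm12892, Ckb-ps1 and Ckb-ps2), so reads could be split among these copies. How far this alters the level of Ckb was not measured. For the other members this share was at most 0.62%.

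The mitochondrial kinases were near 0 in most mice. Ckmt1 (chr2:121357714-121363737, plus strand) had 6 counts among the 130040988 counts of all 10 libraries, at most 2 in any mouse. Ckmt2 (chr13:91853387-91876885, minus strand) had 4, 0, 39, 0 and 237 counts in wild type replicates 2, 3, 5, 6 and 7. It had 89, 0, 255, 10 and 0 counts in ΔGm15551 replicates 1, 2, 4, 5 and 7. The 4 mice at 0 were those with at most 1 count of Ckm, and 0 of their 56249823 counts allows a level of up to 0.0533 CPM over the 4 libraries, for counting error only. The fitted log2FC between genotypes, -0.02 with an SE of 1.74 and an interval of -4.03 to 5.10, therefore gives no usable limit on a difference in Ckmt2.

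Alpl (chr4:137741733-137796384, minus strand) had 113.5, 102.1, 140.1, 100.8 and 85.53 CPM in wild type replicates 2, 3, 5, 6 and 7. It had 93.25, 84.83, 125.0, 112.0 and 129.3 CPM in ΔGm15551 replicates 1, 2, 4, 5 and 7. The means were 108.4 ± 20.3 and 108.9 ± 19.4 CPM (SD, n = 5 each), and the log2FC was 0.01 (SE 0.15, interval -0.33 to 0.34).

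Between genotypes, then, 0 of the 9 members tested passed an adjusted p of 0.05 in edgeR, as did 0 of all 13732 genes (0%), and before adjustment 0 members were past 0.05, where 219 genes (1.59%) were. Leaving out 1 mouse, 0 members were past it while the share of all genes ran from 1.20% to 3.03%; omitting ΔGm15551 replicate 1 gave 3.03%, and omitting wild type replicate 7 gave 2.91%. DESeq2 and limma-voom also called 0 members. All mice of one group lay above all of the other for 0 members, and for 0.320% of the genes tested. The median log2FC was -0.02 over the members and 0.00 over all genes tested. For Ucp1, Ucp2, Ucp3, Ckb, Slc6a8 and Alpl the intervals stayed within 0.6 either way, whereas for Gatm the lower bound lay past a halving.

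**Figure D2:**
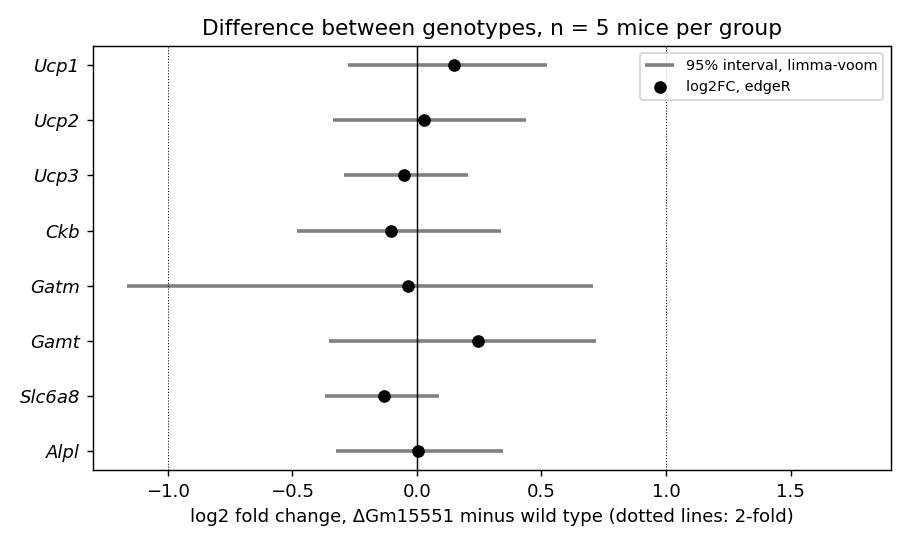
Log2FC between ΔGm15551 and wild type mice (horizontal axis) for 8 of the 9 members tested, with points from edgeR and bars for the 95% interval from limma-voom (n = 5 mice per group). Every bar crosses 0, and that of Gatm, from -1.16 to 0.71, is the widest; Ckmt2 is not drawn because its interval runs from -4.03 to 5.10.

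To set the members in order, levels were divided by the median length of the protein-coding transcripts of each gene. On this scale of CPM per kb, the mean levels over 10 mice were 5311 for Ucp1, 500.3 for Ckb, 142.9 for Alpl, 106.7 for Ucp3, 105.4 for Ucp2, 10.15 for Slc6a8, 1.638 for Gamt, 1.263 for Gatm, 3.617 for Ckmt2 and 0.0521 for Ckmt1. The genes are placed by their mean log2 level, which puts Ckmt2, at 0 in 4 mice, after Gatm although its mean is higher. Without wild type replicate 7 the mean of Ckmt2 was 2.20 CPM per kb. Ucp1 lay above Ckb in all 10 mice, by 3.41 ± 0.51 on the log2 scale (SD), and of 9 neighbouring pairs in the order 6 held (exact paired permutation test, two-sided, adjusted over the 9 pairs; p = 0.00195, the smallest it can give with 10 mice, adjusted p = 0.00351 for 5 of them). Gamt stood above Gatm by 0.56 ± 0.70 in 8 of 10 mice (exact test, adjusted p = 0.0234). Ucp3 and Ucp2 differed by 0.03 ± 0.35 (exact test, p = 0.777), which was within their spread. The other 2 pairs, with Ckmt2 or Ckmt1, are not read here, since the prior count and the length set their values in the mice at 0. The order was itself taken from these 10 mice, and each test holds only for the length used.

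The middle of the order rested on the length used. For Ucp2 and Alpl the median coding transcript is short (743 and 760 bases) beside the longest one (3988 and 2522 bases). With the longest transcript, Alpl fell from 142.9 to 43.08 and Ucp2 from 105.4 to 19.65 CPM per kb, while Ucp3 was at 80.79. Ucp3 then stood above Alpl by 0.92 and Alpl above Ucp2 by 1.14 on the log2 scale, both in all 10 mice. Over the union of exons Ucp3 also preceded Alpl and Alpl preceded Ucp2, with differences of 1.24 and 1.27. The places of Ucp1 and Ckb at the head, and of Slc6a8, Gamt and Gatm after Ucp2, were the same with all 3 lengths. Over the union of exons Gamt and Gatm no longer differed beyond their spread (exact paired test, adjusted p = 0.211).

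**Figure D3:**
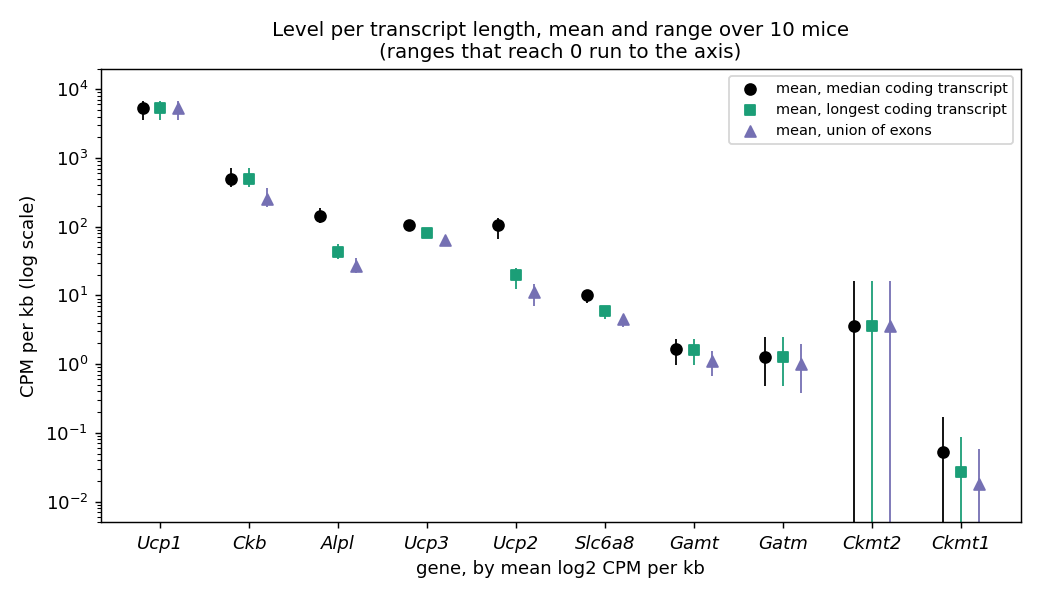
Mean level (CPM per kb, log axis) of each member over 10 mice with the range as a line, for 3 ways of taking transcript length (black circles, median coding transcript; green squares, longest coding transcript; violet triangles, union of exons). Ucp1 and Ckb lead with every length, while Ucp2 moves from 105.4 to 19.65 CPM per kb between the median and the longest transcript.

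As muscle RNA differed between the libraries, each gene was also fitted against a skeletal muscle score, the mean log2 CPM of the 15 muscle genes, together with genotype. The score ran from -1.67 to 6.51. Ckmt2 rose with it, by 1.13 in log2 CPM per unit of score (SE 0.054, edgeR adjusted p = 1.49e-08), as did Ckm by 1.30 (adjusted p = 2.02e-05). Ckmt2 was the single member of 9 to pass, against 0.765% of the genes tested, of which 0.728% rose (100 genes) and 0.0364% fell (5 genes), shares of all genes tested. It had entered the test only through the mice with muscle RNA and is itself a gene of striated muscle, so its count adds nothing to the list. In the 6 mice with more than 1 count of Ckm, Ckmt2 ran from 6.38 counts per 100 counts of Ckm (exact 95% interval 5.57 to 7.28) in wild type replicate 7 to 11.4 (5.27 to 21.9) in ΔGm15551 replicate 5. The best counted pair at the ends of this range, wild type replicate 7 and ΔGm15551 replicate 4 (11.1, interval 9.75 to 12.7), did not overlap.

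Ckb and Ucp1 moved in opposite directions with the score without passing the adjusted threshold. Ckb had a slope of 0.070 (SE 0.026, edgeR adjusted p = 0.252) and Ucp1 of -0.061 (SE 0.025, adjusted p = 0.264). Before adjustment 3 of 9 members were past 0.05, where 17.3% of all genes were: Ckb and Ckmt2 rose, as did 9.46% of genes, and Ucp1 fell, as did 7.82%. That share of all genes ran from 5.61% without wild type replicate 7, with 2 members, to 35.2% without ΔGm15551 replicate 4, with 4 members. It was also over 1.5 times lower without wild type replicate 6 (11.4%), ΔGm15551 replicate 1 (10.1%) or ΔGm15551 replicate 2 (9.67%). Ckb lay between 550.9 and 612.4 CPM in the 4 mice with at most 1 count of Ckm and between 695.6 and 1062 CPM in the other 6, without overlap. Among those 6 mice alone, however, its slope was -0.013, which was not called, and the highest Ckb value came from wild type replicate 5, with an intermediate score of 3.15. The ratio of Ucp1 to Ckb in CPM, which uses the same Ckb values, ran from 15 to 18.4 in the former and from 6.96 to 12.6 in the latter mice. These sets of mice were formed after the data were seen, so the separation is a description. The share of all genes that separate between the same sets was not counted. Markers of other cells overlapped between them: summed levels in the 4 and the 6 mice were 808 to 1020 and 895 to 1480 CPM for 8 endothelial genes, 418 to 601 and 545 to 799 CPM for 8 genes of smooth muscle and pericytes, and 750 to 1090 and 616 to 2550 CPM for 6 genes of red blood cells, with no gene of these 3 lists at 0. The medians of the 4 and the 6 mice were 904 and 1240 CPM for the endothelial, 536 and 628 CPM for the smooth muscle and 973 and 1250 CPM for the red blood cell genes. Before adjustment 6 of 6 red blood cell and 3 of 8 endothelial genes rose with the score, 0 of them past the adjusted threshold in edgeR. Their part in the levels of Ckb and Ucp1 was not tested.

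The slope of Ucp1 passed when ΔGm15551 replicate 4 was left out (-0.087, edgeR adjusted p = 0.0297), in a fit where 35.2% of all genes were past 0.05 before adjustment. This mouse had the second highest score, 5.81, with a Ucp1 level of 9188 CPM, while the other mice with scores over 4, ΔGm15551 replicate 1 and wild type replicate 7, had the 2 lowest Ucp1 levels. Ucp3, which is also a muscle gene, had a slope of -0.021 (SE 0.019, edgeR adjusted p = 0.553). In the same edgeR fit the slopes of Ucp2 (0.026, adjusted p = 0.628), Gamt (-0.019, adjusted p = 0.831), Slc6a8 (-0.006, adjusted p = 0.867) and Alpl (0.003, adjusted p = 0.961) were smaller than their SEs. Gatm had 0.128 (SE 0.066, edgeR adjusted p = 0.320). The make-up of creatine kinase RNA per kb, by median coding length, differed between mice: Ckb was 70.7% of it in wild type replicate 7, where Ckm made up 27% and Ckmt2 2.31%, and all but a trace of it in the 4 mice with at most 1 count of Ckm.

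**Figure D4:**
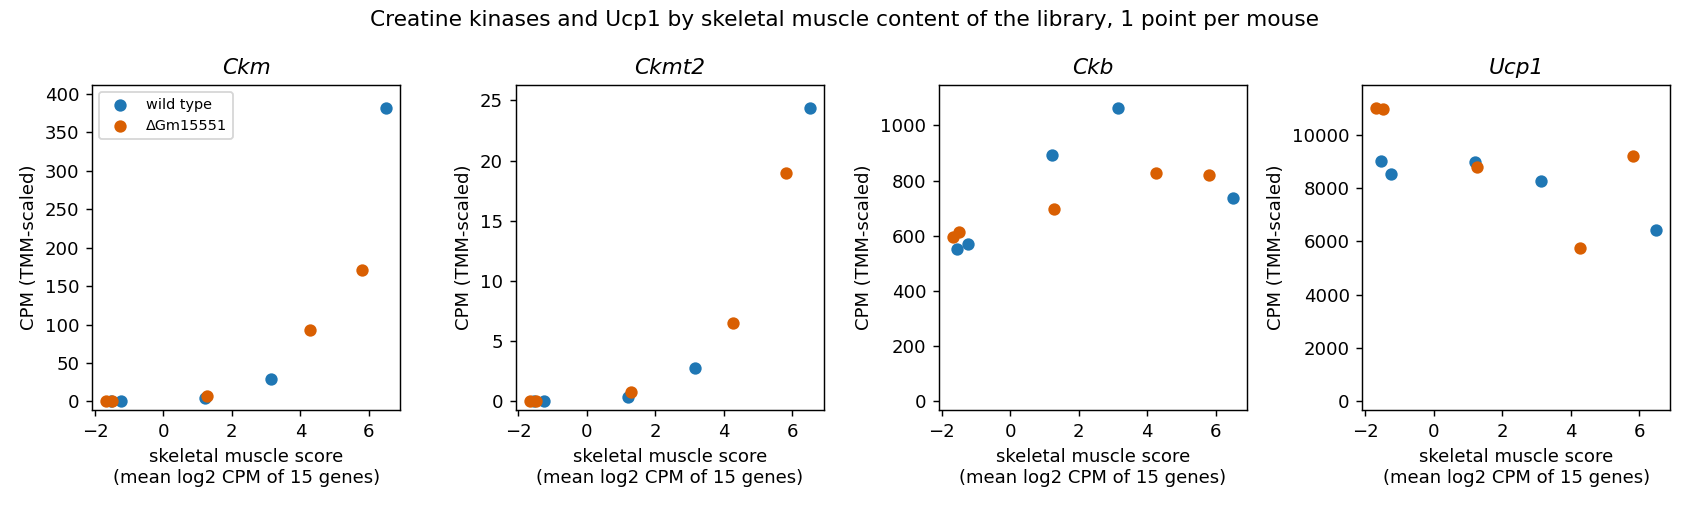
TMM-scaled CPM of Ckm, Ckmt2, Ckb and Ucp1 (vertical axes) against the skeletal muscle score (horizontal axis, mean log2 CPM of 15 muscle genes), 1 point per mouse, wild type in blue and ΔGm15551 in orange. Ckm and Ckmt2 climb from 0 to 381 and 24.3 CPM, while Ckb is lowest in the 4 mice with scores under 0 and peaks at 1062 CPM at a middle score.

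Members were next compared with each other across the 10 mice, leaving out Ckmt1 and Ckmt2, which were near 0 or fell into clusters. Of 28 pairs, 1 passed. Ucp1 and Gatm ran in opposite directions, with Pearson's r of -0.84 (permutation test, two-sided, p = 0.00144, adjusted p = 0.0403) and Spearman's rho of -0.85 (permutation p = 0.00271, adjusted p = 0.0759). The 2 mice with the most Ucp1, ΔGm15551 replicates 2 and 7, had 16 and 18 counts of Gatm, and ΔGm15551 replicate 1, with the lowest Ucp1 level, had 81. Within genotypes r was -0.56 in wild type and -0.91 in ΔGm15551 mice (5 mice each, not tested), and r was -0.84 with values centred within genotype (permutation adjusted p = 0.0216). The relation no longer passed the adjusted threshold without the 2 mice farthest from the median of Ucp1 (r = -0.87, permutation adjusted p = 0.0756) or with CPM from library totals in place of TMM (r = -0.81, adjusted p = 0.0997). It rests on counts of Gatm of at most 81. The muscle score was -1.67 and -1.49 in ΔGm15551 replicates 2 and 7 and 4.27 in ΔGm15551 replicate 1, which also had the highest sum of the 8 endothelial genes, 1480 CPM. Other mice went the other way, ΔGm15551 replicate 4 having 2.307 CPM of Gatm at a score of 5.81 and wild type replicate 3 having 4.111 CPM at -1.24. The part of muscle and endothelial RNA in the relation was not tested. For Ucp1 and Ckb r was -0.39 (permutation p = 0.264), and over all 28 pairs r ran from -0.84 to 0.48.

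**Figure D5:**
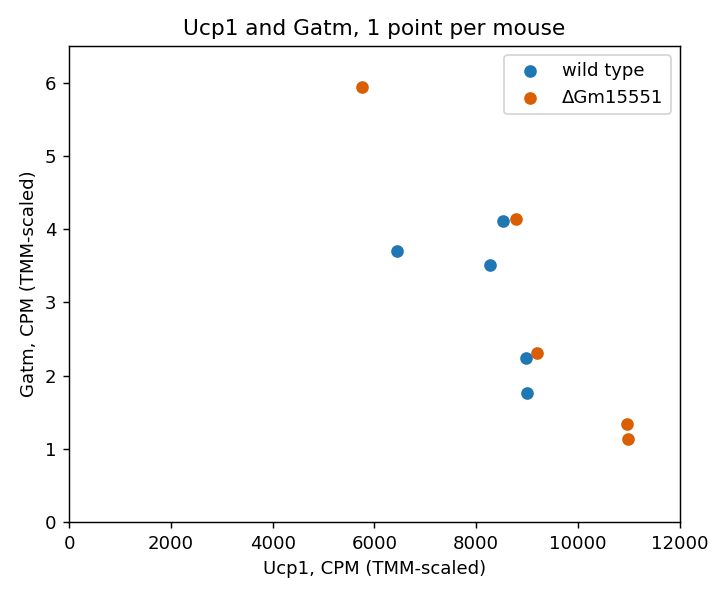
Level of Gatm against that of Ucp1 (both in TMM-scaled CPM, axes from 0), 1 point per mouse, wild type in blue and ΔGm15551 in orange. Gatm is highest, at 5.943 CPM, in the mouse with the lowest Ucp1 level and lowest, at 1.137 CPM, in that with the highest.

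Among 8077 genes tested with a mean of at least 10 CPM, those whose log2 CPM followed Ucp1 most closely over the 10 mice were Spire1 (r = 0.960), Chtf8 (0.959), Hnrnpul2 (0.956), Tmbim6 (0.951) and Ddo (0.951). Those most like Ckb were Exoc1 (r = 0.875), Pkd1 (0.802), Sgsm3 (0.797), Mri1 (0.788) and Psmb7 (0.785). These values are the highest among 8077 genes over 10 mice from the same libraries and are given as a description.

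In the wider pathways no gene was called between genotypes by the same test. Of 9 carriers related to the uncoupling proteins 8 were tested, of 13 genes around creatine and its precursors 10, and of 16 genes of other ATP-consuming cycles 14, and in all 3 lists 0 genes were past 0.05 in edgeR even before adjustment (1.59% of all genes were). Their median log2FC was -0.06, -0.01 and 0.02. For the muscle genes among them the data set no limit on a difference, the interval running from -6.14 to 6.40 for Ckm and from -5.13 to 6.07 for Atp2a1. The most abundant carriers were Slc25a20, the carnitine-acylcarnitine carrier, with 741 CPM and Slc25a5, an ADP/ATP carrier, with 564 CPM, and the smallest p was that of Slc25a4, the other main ADP/ATP carrier (log2FC -0.11, SE 0.11). Around creatine, Phospho1, a phosphatase of phosphocholine and phosphoethanolamine, led with 1480 CPM (log2FC 0.16), and Ak1, an adenylate kinase, had the smallest p (log2FC -0.23, SE 0.12). In the cycles of lipid and calcium, the lipases Pnpla2 (2437 CPM) and Mgll (1765 CPM) were the most abundant, with a log2FC of 0.18 for Pnpla2 (SE 0.15).

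With the muscle score, 1 gene of the creatine list (Ckm) and 2 of the ATP-consuming cycles rose past the adjusted threshold, where 0.728% of all genes did. All 3 are muscle genes set against a score of muscle genes, and, as with Ckmt2, their calls add nothing to the lists. The latter were Atp2a1, the calcium pump of fast muscle (slope 1.28, edgeR adjusted p = 2.66e-05), and Ryr1, its calcium release channel (slope 1.05, adjusted p = 2.34e-07). No carrier passed, and the smallest p was that of Slc25a27 (slope 0.120, edgeR adjusted p = 0.190).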

How the data were processed

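Poly A RNA of iBAT from 10 mice was sequenced in paired-end reads. The study's methods and the submitters' processing notes state that the authors trimmed with cutadapt and ran Salmon against GENCODE M22 (alone or joined with RNAcentral) on GRCm38; versions, strand use and the rounding step are not given in the sources used here. The deposited values were estimated counts (expected counts) per gene in whole numbers, in a separate column for each mouse, not scaled to depth. The design had assumed read counts, and the same test was used.

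The analysis used edgeR 4.0.16 under R 4.3.3: genes with low counts were removed by filterByExpr (at least 10 per library and 15 in total, by group), followed by TMM scaling, a robust quasi-likelihood fit with genotype as its term (common dispersion 0.0523), and Benjamini-Hochberg adjustment over 13732 genes at 0.05. The study used DESeq2 with Wald or likelihood ratio tests and apeglm shrinkage, and names no covariate for RNA-Seq. SEs were derived from the F statistic. Intervals came from limma 3.58.1 (voom), and DESeq2 1.42.0 was an alternative. A prior count of 2 entered log2 CPM. The muscle score left out Ckm, Ckmt2, Ucp3, Atp2a1 and Sln, and its slope was fitted with genotype. Level order and correlations were tested by permutation (scipy 1.17.1; 100000 resamples for correlations).

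Positions and lengths were taken from GENCODE M21, where 99.5% of gene IDs were found, and promoters from RefSeq on GRCm38.p6. The fits were tested on simulated counts. The depth of 9680976 to 15771170 counts limits genes with few counts, and a count of 0 allows up to 3; floors and the exact intervals of ratios cover counting error only, whereas the intervals of log2FCs include the spread between mice.

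The set of members and all lists were drawn up with earlier results of these data known, although the rule itself uses no value. Named were all members, Gm15551, Ckm, the 2 most abundant genes of each pathway list with any gene past the threshold or otherwise that of smallest p, and the 5 genes most like Ucp1 and Ckb. One gene that this rule names is not reported here.

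Replicate numbers shared by the genotypes (2, 5 and 7) were not used as pairs in the main fit. Deviations of same-numbered mice correlated at -0.065, 0.054 and -0.395, which shows no likeness but cannot settle whether the mice were paired. Within each genotype no 2 libraries were duplicates, and pairs across genotypes were not checked.

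Between genotypes, the marker lists for skeletal muscle (11 of 15 genes tested), brown adipocytes (13 of 13), common adipocytes (10 of 10), smooth muscle and pericytes (8 of 8), endothelium (8 of 8), macrophages and neutrophils (7 of 9), lymphocytes (1 of 7), Schwann cells and nerve (6 of 8) and red blood cells (6 of 6) had 0 genes past the adjusted threshold in edgeR, and 2 brown adipocyte genes were higher in ΔGm15551 mice before adjustment (1.59% of all genes were past 0.05 in either direction). With the muscle score, the 11 muscle genes rose by construction. Des also passed (slope 0.147, edgeR adjusted p = 0.00446), as the only 1 of the 8 genes listed for smooth muscle and pericytes. Before adjustment, where 9.46% of all genes rose and 7.82% fell, 6 red blood cell, 3 endothelial, 2 smooth muscle, 1 macrophage and neutrophil, 1 Schwann cell and nerve and 1 brown adipocyte gene rose, and 3 brown adipocyte and 2 common adipocyte genes fell.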

Additional observations from a re-analysis of the deposited data

Results flagged for a closer look

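Among 22 groups of 5 mice searched (the members and Ckm in each genotype), 3 held a mouse far from the other 4 by Dixon's test (gap over range above 0.71). For normal values about 1 in 20 groups, or 1.1 here, is reached by chance. This rate does not hold for Ckmt1, Ckmt2 and Ckm, which were at 0 in several mice. All 3 flags came from wild type replicate 7, which had the highest muscle score, 6.51, and they are not independent. This mouse had 6440 CPM of Ucp1, with the other wild type mice between 8265 and 9007 CPM. Ckmt2 stood at 24.3 CPM, against 0 to 2.79 CPM in the other 4. Ckm stood at 381 CPM, against 0 to 28.8 CPM.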

How the results depend on the processing

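No alternative called a member between genotypes. Over all genes 0 were called in every alternative but 1, the 6 mice with more than 1 count of Ckm (1 gene), an alternative chosen after seeing the data. Following the muscle score, 1 member passed, and leaving out 1 mouse gave 1 to 2. The count of related pairs fell from 1 to 0 with library totals and to 0 without the 2 mice farthest from the median. Leaving out wild type replicate 3 put Ucp2 above Ucp3.

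The replicate block could be fitted only in the 6 mice with shared numbers, which are not known to be pairs. It called 0 members and gave log2FCs of 0.38 for Ucp1, -0.49 for Ckb (edgeR adjusted p = 0.997), -0.67 for Gatm, -4.52 for Ckmt2, -0.05 for Ucp2, 0.09 for Ucp3 and -0.05 for Alpl. Without the block the same 6 mice gave 0.38, -0.50, -0.52, -5.12, -0.04, 0.09 and -0.06. Before adjustment 1 member, Ckb, was past 0.05 in both fits, beside 2.88% and 4.00% of all genes.

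These log2FCs changed sign. Ckmt2 had 0.02 with no filter, 0.53 in limma-voom, 0.33 with the muscle score as a term and 4.83 without the 3 wild type mice of a higher series of mouse numbers. Without those mice Ucp1 had 0.06 and Ucp2 0.18, neither with a change of sign. In the 4 mice with at most 1 count of Ckm, Ckb had 0.11 and Slc6a8 0.02. Without a change of sign, the same 4 mice gave 0.32 for Ucp1, 0.23 for Ucp2, -0.24 for Ucp3 and -1.22 for Gatm, the last past 0.05 before adjustment only (3.30% of all genes were). In the 6 mice with more, Ucp1 had 0.00, Ucp2 -0.09, Ucp3 0.08, Gatm 0.39 and Alpl -0.04, and their slopes on the score were -0.030 for Ucp2, -0.013 for Ckb, 0.003 for Slc6a8 and -0.043 for Alpl. The slope of Alpl was -0.001 with no filter. Leaving out 1 mouse at a time gave log2FCs of -0.07 to 0.12 for Alpl, -0.20 to 0.05 for Ckb, -1.55 to 2.68 for Ckmt2, -0.45 to 0.17 for Gatm and -0.10 to 0.12 for Ucp2, and slopes of -0.015 to 0.033 for Alpl, -0.045 to 0.025 for Gamt and -0.016 to 0.005 for Slc6a8. Without a change of sign, the log2FC ran from 0.07 to 0.28 for Ucp1, from -0.19 to -0.06 for Slc6a8 and from -0.11 to 0.00 for Ucp3. Slopes that kept their sign ran from -0.087 to -0.045 for Ucp1, 0.003 to 0.039 for Ucp2 and -0.031 to -0.009 for Ucp3. Those of Ckb ran from 0.057 to 0.102 and those of Gatm from 0.083 to 0.181. The cause was not tested. Depth limits Gamt and Ckmt1, with at most 31 and 2 counts per mouse.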
